A study of Mus musculus with 6 samples.

Results

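The G1 cyclins and the inhibitors of their kinases were followed as a set of 10 genes, picked by name from the 42450 genes of the deposited count table. They were the D-type cyclins Ccnd1, Ccnd2 and Ccnd3, the E-type cyclins Ccne1 and Ccne2, the CIP/KIP inhibitors Cdkn1a and Cdkn1b, and the INK4 inhibitors Cdkn2a, Cdkn2b and Cdkn2c. Male E14tg2a.4 mouse embryonic stem cells gave total RNA for 3 wild-type (WT) and 3 Srrm2+/- libraries. The Srrm2+/- cells are a single gene-trap line (SIGTR CG0630) made in the same E14tg2a.4 background, with the cassette in exon 1 of 1 allele of Srrm2, whose product is found in nuclear speckles and takes part in splicing. Both lines were grown on gelatine with LIF and moved to serum-free medium with LIF before collection, and the labels and the study's methods differ on the time spent in that medium. The replicates were cells frozen at different passages, and the passages of WT and Srrm2+/- cells differed, so genotype, clone and passage cannot be told apart. All 10 genes passed the filter on low counts.

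In G1 phase, D-type cyclins bind CDK4 and CDK6, and E-type cyclins bind CDK2. These kinases phosphorylate the retinoblastoma protein and its relatives, which releases E2F transcription factors and lets cells enter S phase. INK4 proteins bind CDK4 and CDK6 directly, whereas CIP/KIP proteins bind cyclin-CDK complexes. Embryonic stem cells are known for a short G1 phase, high cyclin E and low levels of INK4 inhibitors, and cyclin D and inhibitor levels usually rise as such cells differentiate.

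Of the 10 genes 3 were called by edgeR (adjusted p under 0.05), namely Cdkn2b, Cdkn2a and Ccnd1, all higher in Srrm2+/- cells. Over all genes tested the called share was 25.3%, which is close to 3 of 10. Cdkn2a and Cdkn2b lie next to each other on the minus strand of chromosome 4, with 11646 bases between them. Their upstream sequences are shown because this locus held both inhibitors of the set that were called higher. Each window covers the 250 bases before a transcript start (RefSeq, GRCm38.p6). Cdkn2a has 2 such starts, since its upstream first exon gives the p19ARF transcript and its downstream first exon gives the p16INK4a transcript. Capitals mark matches to TGACGTCA, the cyclic AMP response element, or TTTNNCGC, an E2F-type motif, on either strand.
Cdkn2b, chr4:89311033-89311282, minus strand: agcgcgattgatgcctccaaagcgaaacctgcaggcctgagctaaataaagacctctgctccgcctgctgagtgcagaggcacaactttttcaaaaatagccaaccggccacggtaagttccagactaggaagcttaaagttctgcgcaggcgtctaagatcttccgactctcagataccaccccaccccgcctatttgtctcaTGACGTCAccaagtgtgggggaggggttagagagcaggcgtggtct
Cdkn2a upstream start, chr4:89294620-89294869, minus strand: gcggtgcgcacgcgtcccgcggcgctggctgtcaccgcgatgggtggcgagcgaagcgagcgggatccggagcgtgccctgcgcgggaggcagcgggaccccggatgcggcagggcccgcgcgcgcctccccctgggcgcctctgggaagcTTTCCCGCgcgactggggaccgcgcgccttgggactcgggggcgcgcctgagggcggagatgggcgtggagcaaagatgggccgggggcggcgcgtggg
Cdkn2a downstream start, chr4:89282193-89282442, minus strand: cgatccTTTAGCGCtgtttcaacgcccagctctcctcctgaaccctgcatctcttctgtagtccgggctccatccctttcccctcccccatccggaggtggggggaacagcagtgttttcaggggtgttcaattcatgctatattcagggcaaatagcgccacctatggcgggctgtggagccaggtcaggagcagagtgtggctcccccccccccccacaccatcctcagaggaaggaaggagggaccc
The Cdkn2b window held 1 match to TGACGTCA, whose first base lies 46 bases before the start. That motif occurred in 1.55% of 32817 mouse promoter windows of the same length. Each Cdkn2a window held 1 match to TTTNNCGC, at 99 bases before the upstream start and 244 bases before the downstream start, and 4.28% of all windows held this motif. The GC box GGGCGG, present in 32.7% of all windows, had 2 matches before the upstream Cdkn2a start (GC content 78.4%) and 0 in the Cdkn2b window (GC content 53.6%). The E box CACGTG (6.02% of all windows) and the CArG box (1.47%) had 0 matches in all 3 windows. Promoter windows were found for 7 of the 10 genes, and Ccnd1, Ccnd2 and Ccne2 were without an entry.

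Library totals were 54151532 to 58499961 estimated counts in WT and 61023103 to 69933465 in Srrm2+/-. Levels are counts per 1000000 reads (CPM) scaled by TMM, group values are the mean ± SD with n = 3 libraries each, and log2FC is the log2 fold change of Srrm2+/- over WT. Srrm2 itself, the check of the labels, was at 91.2, 98.3 and 97.7 CPM in WT and at 62.3, 56.2 and 59.6 CPM in Srrm2+/- (log2FC -0.69, SE 0.05, edgeR adjusted p 2.38e-05). A gene was called at an edgeR adjusted p under 0.05 over all 18905 genes tested. Of these, 25.3% were called, 13.6% higher and 11.7% lower. Among the G1 cyclins and CDK inhibitors 3 of 10 were called higher and 0 lower by edgeR, and 6 of 10 (5 higher and Cdkn1b lower) had an unadjusted p under 0.05, against 36.4% of all genes (18.8% higher and 17.6% lower). DESeq2 called 4 and limma voom 3, with 0 lower in each. Their median log2FC was 0.10, against -0.00254 over all tested genes. The groups did not overlap for 4 of the 10 genes, 3 higher and 1 lower, against 41.4% of all genes tested (21.4% higher and 20.0% lower). At an edgeR adjusted p under 0.01, 2 of the 10 were called (Ccnd1 and Cdkn2b) against 14.7% of all genes, and with a log2FC of at least 1 in size 1 was (Cdkn2b) against 6.10%.

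**Figure D1:**
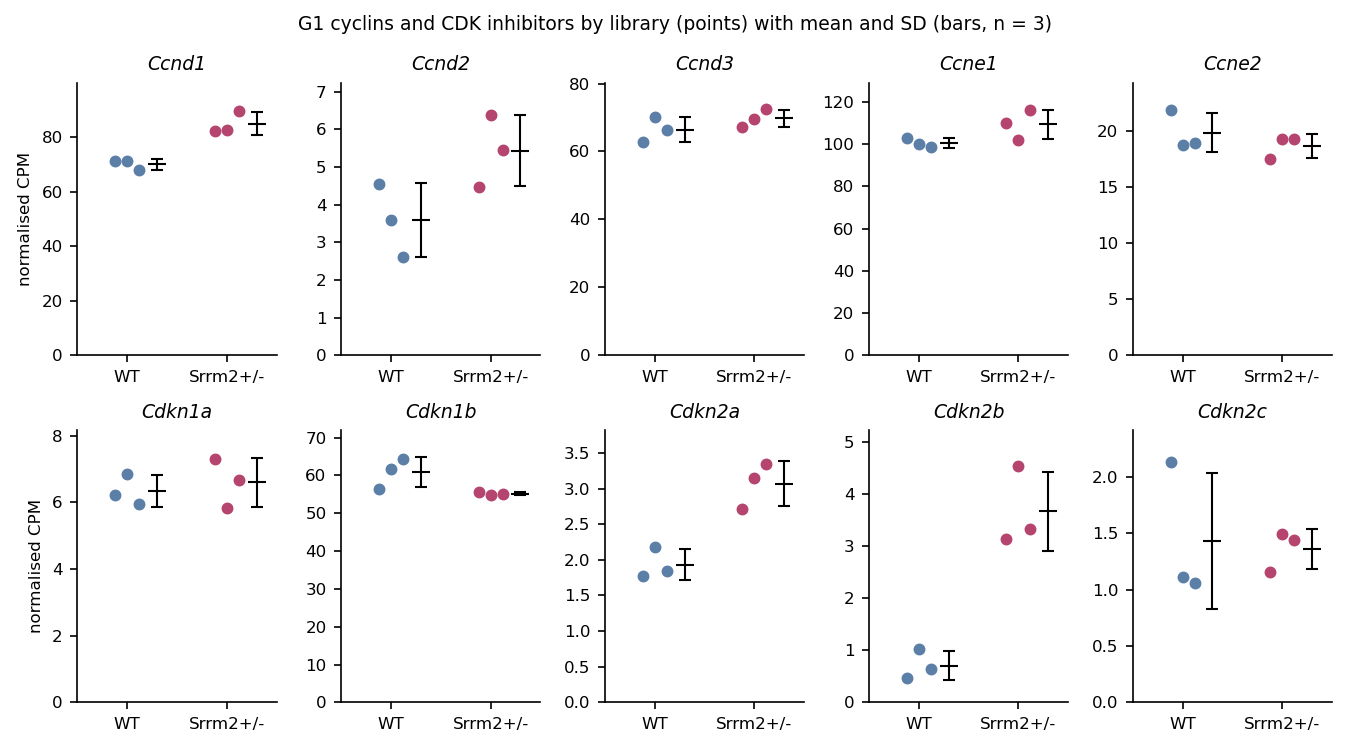
Normalised CPM of the 10 genes in each WT (blue) and Srrm2+/- (red) library, with the mean and SD of 3 libraries as a black bar beside the points; each vertical axis starts at 0. The groups are apart for Ccnd1, Cdkn2a and Cdkn2b (higher in Srrm2+/-) and for Cdkn1b (lower, adjusted p 0.0799), and overlap for the other 6 genes.

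The INK4 inhibitors held the largest difference of the set. Cdkn2b encodes p15INK4b, an inhibitor of CDK4 and CDK6 (ENSMUSG00000073802, chromosome 4, 89306299 to 89311039, minus strand). WT libraries had 26, 59 and 34 counts (0.469, 1.02 and 0.635 CPM), and Srrm2+/- libraries had 217, 313 and 205 counts (3.14, 4.54 and 3.32 CPM). Every Srrm2+/- library lay well above every WT library. Cdkn2b rose from 0.708 ± 0.283 to 3.67 ± 0.762 CPM, a log2FC of 2.37 (SE 0.28, edgeR adjusted p 0.000364). The fitted ratio was 5.15, with an unadjusted 95% interval of 3.33 to 7.97. None of the 31-base words of its transcript (0%) occurred in transcripts of another gene in the annotation used for positions. In these bulk libraries more cells of a kind and more RNA per cell cannot be told apart.

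Cdkn2a, which encodes both p16INK4a and the p53-pathway activator p19ARF, lies just downstream (ENSMUSG00000044303, chromosome 4, 89274471 to 89294653, minus strand). It was at 1.77, 2.18 and 1.85 CPM in WT and at 2.72, 3.15 and 3.34 CPM in Srrm2+/-, and the groups did not overlap. Cdkn2a rose from 1.93 ± 0.219 to 3.07 ± 0.319 CPM, with a log2FC of 0.67 (SE 0.15, edgeR adjusted p 0.0116). Counts are per gene, so the p16INK4a and p19ARF transcripts were not told apart. The third INK4 gene of the set, Cdkn2c (p18INK4c), lies elsewhere on chromosome 4 (109660876 to 109667189). Its WT libraries were at 2.13, 1.11 and 1.06 CPM and its Srrm2+/- libraries at 1.16, 1.49 and 1.44 CPM, and the groups overlapped. The first WT library stood above all the others. The log2FC of Cdkn2c was -0.07 (95% interval -0.71 to 0.57, edgeR adjusted p 0.886), and it turned to 0.33 without WT replicate 1 and to 0.04 without Srrm2+/- replicate 1.

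Markers of fibroblasts, which are known to express INK4 genes in culture, were set beside these values. Of 7 fibroblast markers 5 were tested and 3, all collagens, were called higher, against 13.6% of all genes tested. The summed level of the list was 3.36 to 3.63 CPM in WT and 6.53 to 9.89 CPM in Srrm2+/-. Col1a2 was at 0.197 ± 0.0792 CPM in WT and 2.96 ± 0.769 in Srrm2+/- (log2FC 3.89). The defining marker Dcn was at 0 in WT and at 0.0290 to 0.0578 CPM in Srrm2+/-, and Lum was at 0 to 0.0541 CPM over all libraries. Thy1, with the highest CPM of the list in WT, was at 1.93 ± 0.173 CPM in WT and 1.19 ± 0.498 in Srrm2+/- (log2FC -0.70, edgeR adjusted p 0.0939), and Pdgfrb had a log2FC of 0.23 (edgeR adjusted p 0.685). The part of such cells in the rise of Cdkn2a and Cdkn2b was not tested.

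The balance between Cdkn2a and Cdkn2b was compared within libraries. The log2 ratio of Cdkn2a to Cdkn2b counts within a library does not depend on scaling. It was 1.89, 1.09 and 1.53 in WT and -0.21, -0.53 and 0.007 in Srrm2+/-. The mean ratio was lower by 1.75 on the log2 scale in Srrm2+/- (difference -1.75), and the groups did not overlap (two-sided exact permutation p 0.1, the smallest that 3 against 3 libraries can give; 0.3 adjusted over 6 pairs). Per kilobase of exon, the 3 INK4 genes of the set summed to 2.69 ± 0.292 CPM per kb in WT and 5.76 ± 0.751 in Srrm2+/-. That sum leaves out Cdkn2d, an INK4 gene outside the set, which was at 3.30 ± 0.778 CPM per kb in WT and 1.92 ± 0.769 in Srrm2+/-. Cdkn2b made up 18.7 ± 5.82% of that sum in WT and 45.5 ± 4.42% in Srrm2+/-, and Cdkn2a 61.3 ± 3.89% and 45.6 ± 4.07%.

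The genes around this locus were looked at next, and this window was chosen after the values of Cdkn2a and Cdkn2b were seen. Of 65 listed genes that overlap the 1000000 bases on each side of the Cdkn2b start, 11 were tested and 5 were called by edgeR, all higher, against 13.6% called higher over all genes. Cdkn2a and Cdkn2b, which led to the choice of window, are 2 of the 5. Mtap, the closest other tested gene, encodes an enzyme of methionine salvage. It was at 41.9, 39.2 and 37.3 CPM in WT and at 43.4, 42.5 and 41.0 CPM in Srrm2+/-, and was not called (log2FC 0.10, SE 0.05, edgeR adjusted p 0.216). Klhl9, a substrate adaptor of a ubiquitin ligase whose start lies 588.6 kb away, rose from 37.0 ± 4.60 to 63.0 ± 1.77 CPM (log2FC 0.77, SE 0.08, edgeR adjusted p 0.000196). The other 2 genes called higher were Gm26566, which overlaps Klhl9 on the opposite strand, and Gm13285, both under 1 CPM in every library.

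**Figure D2:**
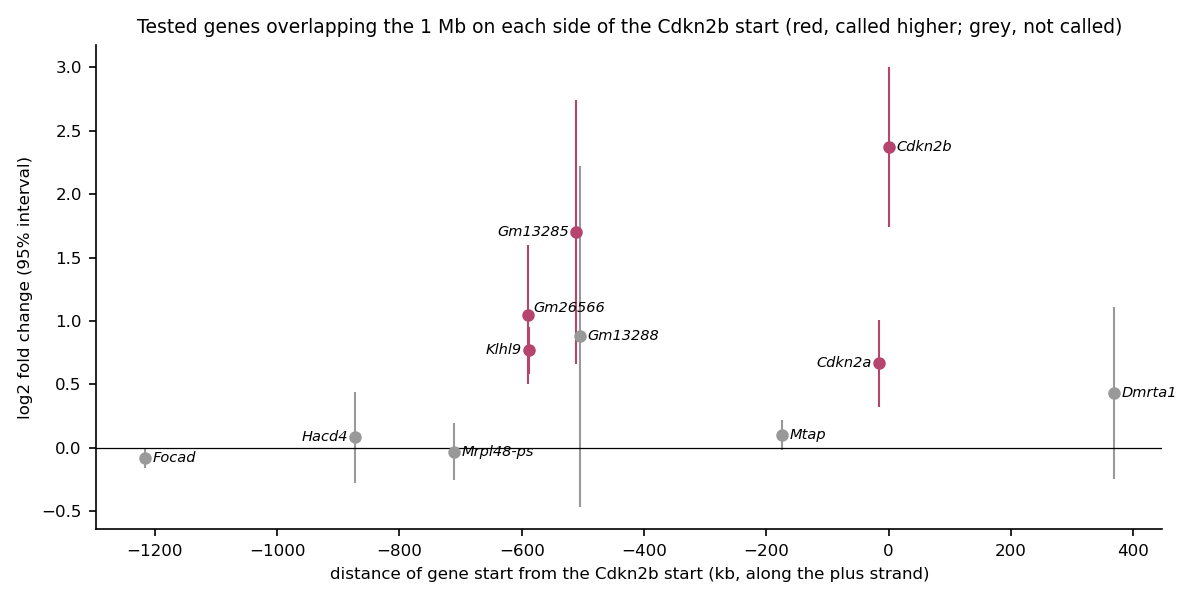
Log2FC (Srrm2+/- over WT) with its 95% interval for the 11 tested genes around Cdkn2b, against the distance of each gene start from the Cdkn2b start in kb. Cdkn2b (2.37), Cdkn2a (0.67) and the distant Klhl9 (0.77), Gm26566 (1.05) and Gm13285 (1.70) are called higher. Mtap (0.10), which lies between Cdkn2a and Klhl9, is not called.

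Among the D-type cyclins, Ccnd1 passed the test. Ccnd1 encodes cyclin D1, a partner of CDK4 and CDK6 that responds to mitogens (ENSMUSG00000070348, chromosome 7, 144929931 to 144939925, minus strand). It was at 71.1, 71.3 and 67.8 CPM in WT and at 82.2, 82.6 and 89.7 CPM in Srrm2+/-. The groups did not overlap, although the step between them was small. Ccnd1 rose from 70.1 ± 1.97 to 84.8 ± 4.21 CPM, a log2FC of 0.28 (SE 0.05, edgeR adjusted p 0.00269) or a ratio of 1.21 (95% interval 1.12 to 1.30). LTO1, on the opposite strand, overlaps Ccnd1 and shares 22.3% of the 31-base words of Ccnd1. It was at 8.83 ± 0.984 CPM in WT and 8.62 ± 0.764 in Srrm2+/-. With the counts of both genes summed, an analysis chosen after seeing the data, the log2FC was 0.24 (edgeR adjusted p 0.00522).

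Ccnd2 encodes cyclin D2 (ENSMUSG00000000184, chromosome 6, 127125162 to 127152193). It was at 4.56, 3.60 and 2.61 CPM in WT and at 4.48, 6.38 and 5.45 CPM in Srrm2+/-, and the lowest Srrm2+/- library lay just under the highest WT library. Its log2FC of 0.60 (SE 0.21, 95% interval 0.13 to 1.07) did not pass the threshold (edgeR adjusted p 0.0653). DESeq2 called it (adjusted p 0.0133), as did edgeR without WT replicate 1 (0.81, adjusted p 0.0245). Ccnd3, which encodes cyclin D3 (ENSMUSG00000034165, chromosome 17, 47505051 to 47599691), was at 62.9, 70.1 and 66.3 CPM in WT and at 67.3, 69.6 and 72.4 CPM in Srrm2+/-. Its groups overlapped and its difference was small (log2FC 0.07, 95% interval -0.04 to 0.18, edgeR adjusted p 0.361), and it was 0.0326 without WT replicate 1. Ccnd2 and Ccnd3 share 6.95% and 7.95% of their 31-base words with other genes.

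The balance of the D-type cyclins was compared in the same way. The log2 ratio of Ccnd1 to Ccnd3 counts was 0.18, 0.0229 and 0.0317 in WT and 0.29, 0.25 and 0.31 in Srrm2+/-. The groups did not overlap, and the mean was higher by 0.20 in Srrm2+/- (exact permutation p 0.1, the smallest possible; 0.3 adjusted over 6 pairs). Per kilobase of exon, Ccnd1 took 65.2 ± 1.05% of the D-type sum in WT and 67.9 ± 0.685% in Srrm2+/-, and Ccnd2 took 1.67 ± 0.441% and 2.18 ± 0.377%. The ratios of Ccnd1 to Ccnd2 and of Ccnd2 to Ccnd3 overlapped between the groups (exact permutation p 0.3 and 0.2).

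The E-type cyclins, which activate CDK2 at the G1/S boundary, gave 0 calls with edgeR, DESeq2 and limma voom. Of the 2 genes 1 had an unadjusted edgeR p under 0.05, against 36.4% of all genes tested. Ccne1 (ENSMUSG00000002068, chromosome 7, 38097984 to 38107534) was at 103, 100 and 98.5 CPM in WT and at 110, 102 and 116 CPM in Srrm2+/-. The second Srrm2+/- library lay within the WT range, and the log2FC was 0.12 (95% interval 0.00471 to 0.24, edgeR adjusted p 0.123). Without that library edgeR called Ccne1 (0.17, adjusted p 0.0417). Ccne2 (ENSMUSG00000028212, chromosome 4, 11191351 to 11204779) was at 21.9, 18.8 and 19.0 CPM in WT and at 17.5, 19.3 and 19.3 CPM in Srrm2+/-. The groups overlapped (log2FC -0.09, 95% interval -0.26 to 0.08, edgeR adjusted p 0.427), and without WT replicate 1, the highest library, the log2FC was -0.0146. Ints8 overlaps Ccne2 on the opposite strand and shares 15.6% of its 31-base words; it was at 95.6 ± 4.31 CPM in WT and 99.1 ± 2.54 in Srrm2+/-.

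Neither CIP/KIP inhibitor of the set was called by edgeR, DESeq2 or limma voom. Of the 2 genes 1 had an unadjusted edgeR p under 0.05, against 36.4% of all genes tested. Cdkn1c, a CIP/KIP gene outside the set, was called higher by each of these tools (log2FC 0.78, edgeR adjusted p 0.000638). Cdkn1b encodes p27KIP1, a brake on CDK2 that is regulated largely through protein turnover (ENSMUSG00000003031, chromosome 6, 134920401 to 134925513). It was at 56.4, 61.8 and 64.3 CPM in WT and at 55.6, 54.7 and 55.2 CPM in Srrm2+/-. All Srrm2+/- libraries lay below the lowest WT library, by less than the spread of WT, and the log2FC was -0.14 (95% interval -0.26 to -0.02, edgeR adjusted p 0.0799). Without WT replicate 1, the WT library nearest to Srrm2+/-, it was called lower (-0.19, adjusted p 0.0173). Cdkn1a encodes p21CIP1, a well-known target of p53 (ENSMUSG00000023067, chromosome 17, 29090976 to 29100727). It was at 6.22, 6.85 and 5.94 CPM in WT and at 7.31, 5.83 and 6.66 CPM in Srrm2+/-, with overlapping groups. Its log2FC was 0.06 (95% interval -0.20 to 0.31, edgeR adjusted p 0.756) and reversed to -0.02 without Srrm2+/- replicate 1. Of its 31-base words 9.78% occur in other genes.

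The levels of the 10 genes were compared per kilobase of merged exons, a scale that depends on which annotated exons the cells use. In WT the order ran from Ccne1 (37.8 CPM per kb) through Ccnd1 (14.9), Cdkn1b (13.4), Ccnd3 (7.57), Ccne2 (5.70), Cdkn1a (1.78), Cdkn2a (1.65), Cdkn2c (0.533) and Cdkn2b (0.509) to Ccnd2 (0.382). The library ranges of Cdkn1a and Cdkn2a overlapped, as did those of Cdkn2c and Cdkn2b and those of Cdkn2b and Ccnd2. In Srrm2+/- the first 5 places were the same, and the sixth was taken by Cdkn2b (2.64 CPM per kb), whose range overlapped that of Cdkn2a (2.62). Cdkn1a (1.86), Ccnd2 (0.578) and Cdkn2c (0.508) followed, and the ranges of Ccnd2 and Cdkn2c overlapped.

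**Figure D3:**
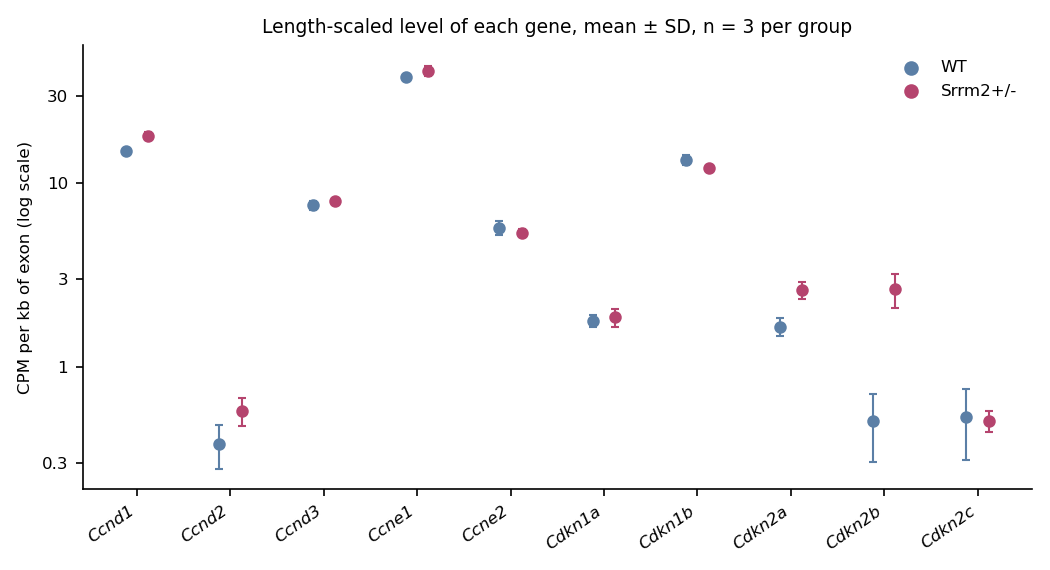
Mean level ± SD (n = 3) of the 10 genes in WT (blue) and Srrm2+/- (red), in CPM per kb of merged exon on a log axis. Ccne1 is the highest in both groups, and Cdkn2b moves from 0.509 to 2.64 CPM per kb, level with Cdkn2a.

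The remaining G1 machinery was summarised from a list of 29 genes, all tested. Of these, 10 were called, 5 higher and 5 lower, with a median log2FC of -0.04. Over all genes tested 25.3% were called, 13.6% higher and 11.7% lower. The groups did not overlap for 14 of the 29 (6 higher and 8 lower), against 41.4% of all genes tested (21.4% higher and 20.0% lower). Myc, a growth-promoting transcription factor, was at 2.87, 3.70 and 3.85 CPM in WT and at 9.64, 9.16 and 10.5 CPM in Srrm2+/- (log2FC 1.49, SE 0.13, edgeR adjusted p 5.42e-05). Its relative Mycn was at 115 ± 6.52 CPM in WT and 125 ± 8.46 in Srrm2+/- and was not called (edgeR adjusted p 0.185). Among kinases, Cdk6 rose from 24.9 ± 1.10 to 33.1 ± 1.62 CPM (log2FC 0.41, SE 0.06, edgeR adjusted p 0.000868). Cdk4 was at 470 ± 5.86 CPM in WT and 464 ± 6.56 in Srrm2+/-, and Cdk2 at 76.7 ± 4.68 and 70.9 ± 3.28, with edgeR adjusted p of 0.777 and 0.174.

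Of the inhibitors outside the set of 10, the CIP/KIP gene Cdkn1c (p57KIP2, product of an imprinted gene) rose from 8.27 ± 0.645 to 14.3 ± 1.67 CPM (log2FC 0.78, SE 0.10, edgeR adjusted p 0.000638). Cdkn2d (p19INK4d) was at 5.28, 6.38 and 3.94 CPM in WT and at 1.62, 3.67 and 3.76 CPM in Srrm2+/-. The groups lay just apart, and the gene was not called (log2FC -0.79, SE 0.30, edgeR adjusted p 0.0906). Without Srrm2+/- replicate 1, the lowest library, the log2FC was -0.49. Downstream, Rbl2, which encodes the RB relative p130, fell from 8.60 ± 1.19 to 4.26 ± 0.726 CPM (log2FC -1.01, SE 0.15, edgeR adjusted p 0.00138). E2f2, an activating E2F, fell from 12.3 ± 0.526 to 7.82 ± 0.610 CPM (log2FC -0.65, edgeR adjusted p 0.00056). Tfdp2, an E2F partner, fell from 79.3 ± 1.74 to 65.5 ± 3.36 CPM (log2FC -0.28, edgeR adjusted p 0.00255). Of the 8 E2F genes, 1 was called higher (E2f4, not without Srrm2+/- replicate 3) and 2 lower (E2f1 and E2f2). Rb1, the gene of the retinoblastoma protein, was not called (log2FC -0.04, 95% interval -0.27 to 0.20, edgeR adjusted p 0.837).

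**Figure D4:**
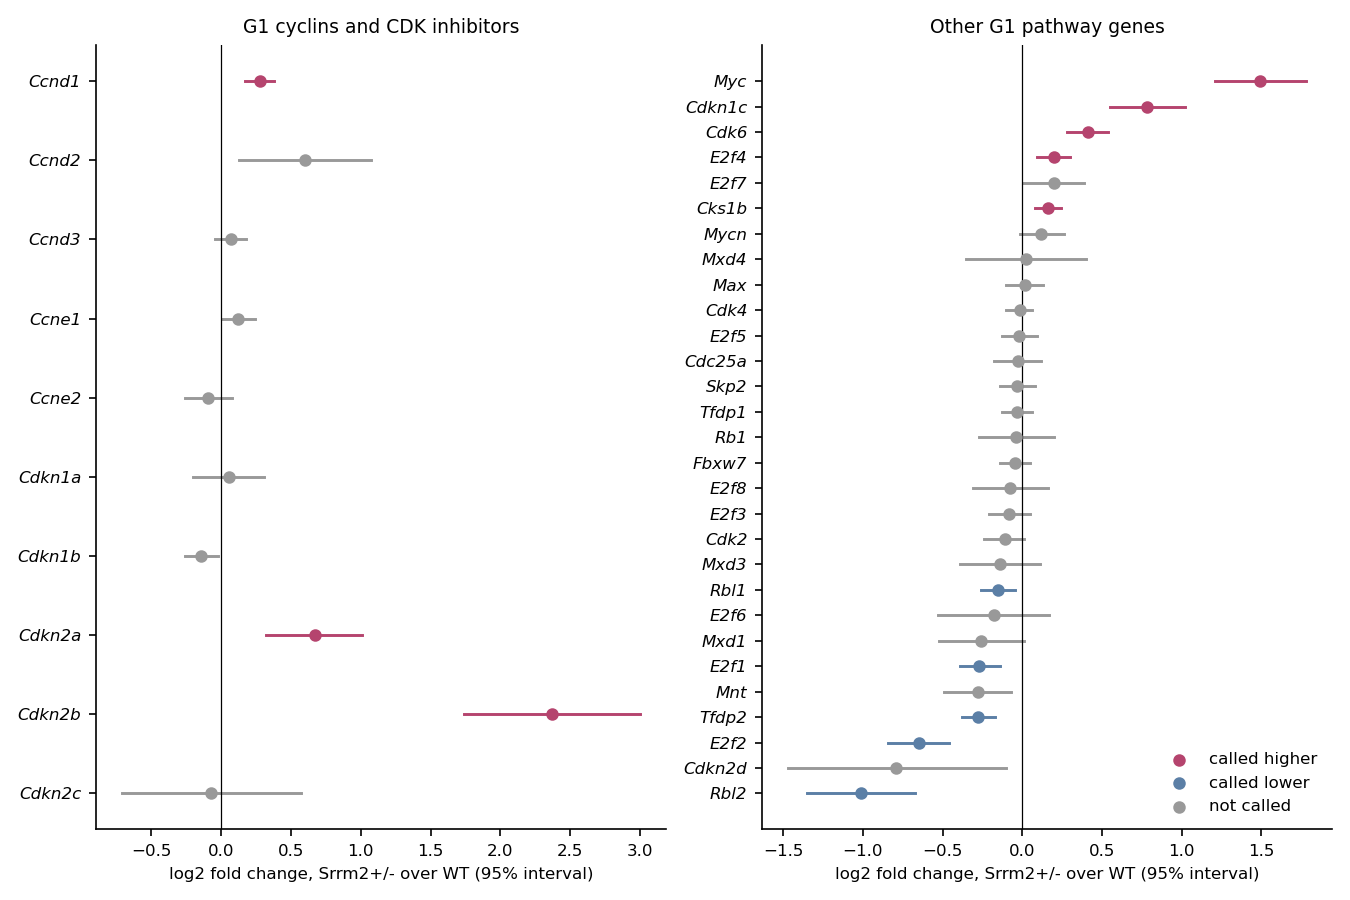
Log2FC with its unadjusted 95% interval for the 10 G1 cyclins and CDK inhibitors (left) and the 29 other G1 pathway genes (right), coloured by the edgeR call. Cdkn2b (2.37) is the largest change on the left, and Myc (1.49) and Rbl2 (-1.01) are the largest called changes on the right; the 2 horizontal scales differ.

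Cyclins, kinases and CDC25 phosphatases of S, G2 and M phase, with the marker Mki67, formed a comparison list of 11 genes, of which 10 were tested and 1 was called by edgeR. Over all genes tested 25.3% were called. The groups did not overlap for 4 of the 10, all higher, against 41.4% of all genes tested (21.4% higher and 20.0% lower). The gene called was Plk1, a mitotic kinase, which rose from 43.0 ± 4.61 to 58.7 ± 4.47 CPM (log2FC 0.45, SE 0.08, edgeR adjusted p 0.00435). Ccna2 was at 301 ± 11.9 CPM in WT and 314 ± 1.16 in Srrm2+/-, and the proliferation marker Mki67 at 497 ± 13.7 and 528 ± 16.5. Their edgeR adjusted p were 0.311 and 0.161, and the groups of Mki67 lay apart.

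Markers of cell identity were looked at last. Over all genes tested 13.6% were called higher and 11.7% lower. The embryonic stem cell markers were abundant in every library, and 4 of 6 were called lower. Pou5f1 (log2FC -0.04, edgeR adjusted p 0.485) and Sall4 (log2FC -0.08, edgeR adjusted p 0.395) were not called. The 6 markers summed to 2987 to 3097 CPM in WT and 2462 to 2573 CPM in Srrm2+/-. Of 5 primitive endoderm markers, summing to 1.85 to 2.46 CPM in WT and 2.37 to 3.31 CPM in Srrm2+/-, 4 were tested and Dab2 was called higher (log2FC 1.34, edgeR adjusted p 0.0112). The others were not called, with a log2FC of -0.77 for Sox7, whose groups lay apart, -0.00377 for Gata4 and 0.95 for Gata6. Of 4 trophoblast markers 3 were tested and Tfap2c was called lower. The list summed to 51.3 to 52.4 CPM in WT and 31.1 to 34.3 CPM in Srrm2+/-, nearly all of it Tfap2c (50.6 ± 0.442 and 30.8 ± 1.78 CPM). Cdx2 was at 0 in WT and at 0.0723, 0.116 and 0.276 CPM in Srrm2+/-, Gata3 had a log2FC of 0.38 and Elf5 of -0.33, and neither of the latter was called. The part of these shifts in the rise of Ccnd1 was not tested.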

How the data were processed

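Total RNA libraries of 3 WT and 3 Srrm2+/- cultures were analysed. The authors pseudo-aligned reads with Kallisto 0.46.1 to the GENCODE release M24 mouse transcriptome (mm10, from the study's methods and the submitters' processing notes) and deposited estimated counts per gene, not normalised. The study's methods name a stranded library kit, and the strand setting of the pseudo-alignment is not given in the sources used here. Groups came from the sample titles, and p-values measure the spread between these libraries.

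Estimated counts were rounded. Symbols, positions and exon lengths came from GENCODE release M21 (GRCm38, counted from 1), which matched 42156 identifiers. Genes were kept by filterByExpr (minimum count 10, minimum total 15). Differences were tested two-sided with edgeR 4.0.16 (TMM, glmQLFit, glmQLFTest, genotype as the sole term) and adjusted by Benjamini-Hochberg over all genes. The SE was the log2 fold change divided by the square root of F, and 95% intervals used the t quantile of that test. Paralog ratios used counts plus 0.5 and a two-sided exact permutation test. Shared sequence was measured as 31-base words of M21 transcripts. The edgeR fit was also run on counts simulated with the spread estimated from these same libraries, and the outcome is not reported here. The genes named were the 10 members, Srrm2, the G1 kinases and further inhibitors, up to 3 called genes with the largest changes in each direction from the other G1 and the S, G2 and M lists, and the 3 profiles nearest to Cdkn2b. Mycn, Rb1, Rbl1, E2f1, E2f4, Ccna2, Mki67, the cell type markers, the genes overlapping Ccnd1 and Ccne2 and the neighbours of Cdkn2b were named after their values were seen. Members and lists were chosen with earlier results of these data known. Alternatives were RLE and upper quartile factors, DESeq2 1.42.0, limma voom (limma 3.58.1), other filters, a replicate block, each library left out, leaving out genes of short RNA, of rRNA and of mitochondria, stricter call rules and a pseudocount of 5 for ratios.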

Additional observations from a re-analysis of the deposited data

How the results depend on the processing

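Ccnd1, Cdkn2a and Cdkn2b kept their direction and their call under all alternatives run for them that kept the call rule, with log2 fold changes of 0.23 to 0.30, 0.60 to 0.76 and 2.14 to 2.73. At an adjusted p under 0.01 Cdkn2a was lost. The number of the 10 genes called was 3 to 5 when 1 library was left out (5 without WT replicate 1, when Ccnd2 and Cdkn1b were added) and 1, Cdkn2b, where a change of 1 or more on the log2 scale was also asked for. Leaving out 1 library left 3515 to 4122 genes called over all genes tested (4122 without WT replicate 1), against 4781 with all libraries. Ccnd2 passed with DESeq2 (0.60), when genes with any count were kept (0.60, edgeR adjusted p 0.0458) and without WT replicate 1. Leaving out 1 library, log2 fold changes ranged from 0.42 to 0.81 for Ccnd2, 0.0753 to 0.17 for Ccne1, 0.0326 to 0.11 for Ccnd3, -0.13 to -0.0146 for Ccne2, -0.19 to -0.10 for Cdkn1b, -0.02 to 0.14 for Cdkn1a, -0.24 to 0.33 for Cdkn2c and -0.98 to -0.49 for Cdkn2d. Cdkn1a reversed to -0.0201 without Srrm2+/- replicate 1, and Cdkn2c reversed to 0.33 without WT replicate 1 and to 0.0368 without Srrm2+/- replicate 1; the cause of these shifts was not tested. Over all genes, 2779 were called at an adjusted p under 0.01 and 1153 with the log2 limit of 1, against 4781. Of the 29 other G1 genes 10 were called, and 2 (Myc and Rbl2) with that fold limit, against 25.3% and 6.10% of all genes tested. Rbl1 lost its call with DESeq2, with the replicate block, when genes with any count were kept, at an adjusted p under 0.01, under the fold limit and without each library in turn. All 6 ratio differences kept their sign.

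Deviations of same-numbered libraries from their group means were nearly uncorrelated (-0.0285, -0.0337 and -0.03). The sample titles give these libraries a shared number only, and such values cannot tell whether they were handled together. A replicate block in edgeR left 4166 genes called, 3 of the 10 genes (Ccnd1 0.27, Cdkn2a 0.67, Cdkn2b 2.40) and 9 of the other G1 genes. With 3 libraries a group, a gene not called may still differ by an amount within its interval, and the smallest detectable difference was not computed. Cdkn2b rests on 26 to 59 counts per WT library.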

Other observations

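The genes whose profile over the 6 libraries lay closest to that of Cdkn2b, by Euclidean distance of log2 CPM centred on each gene's own mean, were Hivep2, Gprc5c and Lipg (distances 0.671, 0.721 and 0.773 among 11961 genes). Hivep2, a zinc finger transcription factor, was at 0.973, 1.30 and 0.840 CPM in WT and at 5.94, 5.84 and 5.58 CPM in Srrm2+/-. Group values are mean ± SD with n = 3. Gprc5c, an orphan G protein-coupled receptor, was at 1.02 ± 0.0877 CPM in WT and 5.45 ± 0.297 in Srrm2+/-. Lipg, an endothelial lipase, was at 1.03 ± 0.161 and 4.60 ± 0.0631 CPM. The 6 libraries fall into the 2 genotypes, so a short distance mostly records a difference of like size between them. No gene of the set of 10 was called lower, so no profile was matched to a fall.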
